A study of Homo sapiens with 6 samples.

Results

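Of the sequence that both LC3 replicates listed as domains, a small share was listed by only 1 of the 2 lamin B1 replicates, and that share is described here. Domain lists of IMR90 cells, which are human lung fibroblasts, were used from chromatin immunoprecipitation followed by sequencing. The cells were untreated and kept at 3% oxygen. The lists came from 2 lamin B1 replicates and 2 LC3 replicates, and 2 input samples were not analysed here. A stretch was taken wherever consecutive bases lay in both LC3 lists and in exactly 1 lamin B1 list. This gave 566 stretches with a total length of 95.9 Mb, among 3253 stretches into which the whole series divides by the set of lists that hold them. The 4 lists themselves chose the stretches, so everything drawn from the lists is a description with no test. Nothing in the labels says that the replicates were separate cultures, and each lamin B1 replicate is a single list, so a contrast of one with the other has no replicate check.

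Lamin B1 is an intermediate filament protein of the nuclear lamina, the meshwork under the inner nuclear membrane. The long, mostly gene-poor and late-replicating chromatin that touches this meshwork forms lamina-associated domains, and contact with the lamina can differ between cells of one population. LC3 belongs to the ATG8 family of small ubiquitin-like proteins, which are joined to a membrane lipid during autophagy and bind the cargo that is to be degraded. In the nucleus LC3 is known to bind lamin B1. Sequence is called firm for a protein below when both of its replicates listed it, and a lamin B1 replicate is said to hold a stretch when its list is the one that contains it.

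The stretches made up 7.29% of the 1316 Mb of firm LC3 sequence. Firm lamin B1 covered 79.1% of that sequence, and the remaining 13.6% was in neither lamin B1 list. Lamin B1 replicate 2 held 57.8 Mb in 273 stretches (60.3% of the length), and replicate 1 held 38.0 Mb in 293 stretches (39.7%). The larger part therefore lay with the lamin B1 list that was shorter as a whole, at 1384 Mb against 1400 Mb. When firm LC3 was replaced by a single LC3 list, the total was 110.7 Mb with LC3 replicate 1 and 115.2 Mb with LC3 replicate 2 (mean 112.9 ± 3.15 Mb, SD, n = 2). Lamin B1 replicate 2 then held 53.2% and 59.9% of the length. Both totals rest on the same 2 lamin B1 lists, so the SD does not measure the spread of the 95.9 Mb between replicates. No stretch combined bases of both holders, and no pair of neighbouring stretches was closer than 100 kb.

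Most stretches were slivers, and most of the length was in a few long pieces. The median length was 24 kb, with an interquartile range of 3 to 141.5 kb. A length below 12 kb was found for 220 stretches (38.9%), which summed to 0.758 Mb. The lamin B1 lists were laid out in bins of 3 kb for replicate 1 and 4 kb for replicate 2, and those grids coincide every 12 kb. The shortest length, 1 kb, was shared by 91 stretches, 90 of which were at the edge of a lamin B1 domain. At the other end, 168 stretches of at least 100 kb held 92.1% of the length and 22 stretches of at least 1 Mb held 36.1%. Of these 22, replicate 2 held 15 with 26.2 Mb and replicate 1 held 7 with 8.42 Mb.

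Each stretch was sorted by the shape of the difference between the lamin B1 lists. In an edge shift, both lists had the domain but one carried its end further out. In a break, one list had an unbroken domain where the other had a gap with domain on both sides. A whole domain was present in one lamin B1 list and shared no base with the other. Edge shifts numbered 489 and summed to 38.6 Mb (40.2%), breaks numbered 48 and summed to 38.4 Mb (40.0%), and whole domains numbered 29 and summed to 18.9 Mb (19.7%). Edge shifts were thus numerous and short, with a median of 15 kb, whereas the medians were 526 kb for breaks and 543 kb for whole domains. The shortest whole-domain stretch was 189 kb, and the longest edge shift was 1.36 Mb, so the kinds overlapped in length. Of the length in edge shifts, replicate 2 held 52.5%. The corresponding figures were 66.7% for breaks and 63.4% for whole domains, so the excess of replicate 2 came mainly from breaks and whole domains. Among breaks it lay in those of at least 1 Mb, 9 with 19.3 Mb for replicate 2 against 5 with 5.88 Mb for replicate 1. From 500 kb to 1 Mb replicate 1 held more, 4.77 against 3.03 Mb, and from 100 to 500 kb less, 1.88 against 3.26 Mb.

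**Figure D1:**
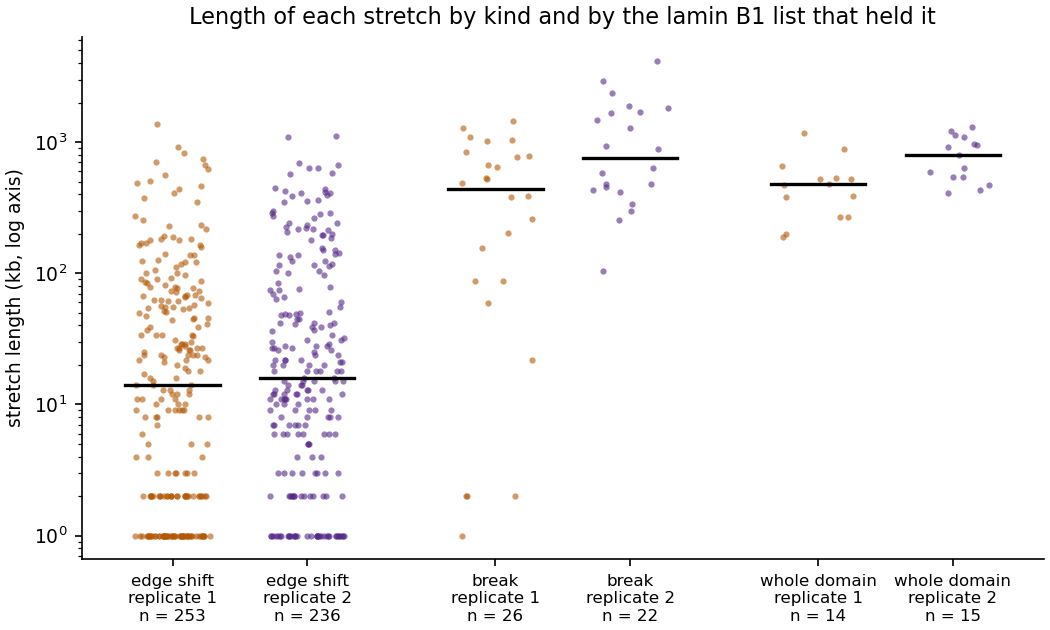
Length of each of the 566 stretches in kb on a log axis, by kind and by the lamin B1 replicate that held it; points are stretches and bars are medians. Edge shifts spread from 1 kb upwards with medians of 14 and 16 kb, while breaks and whole domains lie mostly above 100 kb and replicate 2 has the higher median in both.

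Breaks included the 5 longest stretches, and replicate 2 held all 5. The longest was on chromosome 2 from 188385001 to 192576000 (4.19 Mb; all positions are in GRCh37/hg19). LC3 replicates 1 and 2 each listed 1 domain across the surrounding 20.1 Mb, with ends that differed by 1 kb, from 176065001 to 196210000 and from 176064001 to 196209000. Lamin B1 replicate 2 ran without interruption from 179408001 to 196208000. Lamin B1 replicate 1 instead had a small domain of 0.543 Mb that ended at 188385000 and another domain that began at 192576001 and ended at 196212000. The outer ends of all 4 lists on the right therefore fell within 4 kb, and the lists parted inside the block. The roles were reversed further left in the same LC3 domain, where lamin B1 replicate 1 was continuous from 176100001 to 187365000 and replicate 2 was divided into 3 domains. This LC3 domain held 5 stretches with 5.85 Mb, or 29.0% of its length, of which replicate 2 held 4.67 Mb.

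The next longest stretch was on chromosome 3 from 104496001 to 107418000 (2.92 Mb). There lamin B1 replicate 2 listed a domain of 6.88 Mb where replicate 1 listed pieces of 2.59 and 1.16 Mb. The third was on chromosome 7 from 15741001 to 18093000 (2.35 Mb). Its host, the replicate 2 domain from 8108001 to 20676000, also spanned a replicate 1 gap of 1.69 Mb from 12435001 to 14121000, so 32.1% of that host was unsteady. The next 2 stretches were on chromosome 12 from 88332001 to 90219000 (1.89 Mb) and on chromosome 9 from 20421001 to 22236000 (1.82 Mb). In both, LC3 replicate 2 had a domain of over 20 Mb (22.3 and 24.97 Mb) that reached well beyond the block, and LC3 replicate 1 had one of 14.9 and 12.4 Mb. Firm LC3 covered all 5 gaps without a missing base. Only bases in both LC3 lists could enter a stretch, and the longest were picked, so this cover follows in part from the selection.

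Replicate 1 held 26 breaks with a median of 440 kb, against 22 with a median of 758 kb for replicate 2. Of these, 9 and 1 were fragments of at most 155 kb cut off by the end of firm LC3. Gaps that firm LC3 filled entirely numbered 17 with a median of 672 kb for replicate 1 and 21 with a median of 879 kb for replicate 2. The longest held by replicate 1 was on chromosome 18 from 32476001 to 33920000 (1.44 Mb), inside a lamin B1 replicate 1 domain of 18.9 Mb that replicate 2 had divided. On chromosome 20, replicate 1 was continuous from 6126001 to 25047000, and replicate 2 stopped at 17452000 and resumed at 18740001, which left a stretch of 1.29 Mb. The LC3 lists spanned this region with single domains of 19.03 and 18.97 Mb. The 48 breaks fell in 36 host domains with a median length of 6.75 Mb, and 9 hosts held more than 1 break. Over all domains the median length was 1.15 Mb in each lamin B1 list. A host has to span the gap and domain on both sides of it, and longer domains have more room. The length of the hosts therefore follows in part from the definition. Of the breaks, 38 (37.9 Mb, 98.6% of their length) had sequence of all 4 lists on both sides. A caller of broad domains can run on over a short dip in enrichment, and a gap in a list can reflect the way such dips were treated; this was not tested. The shortest gap was 30 kb in lamin B1 replicate 1 and 28 kb in replicate 2.

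The opposite direction of break can be set against these. Across the genome, lamin B1 replicate 2 bridged 27 gaps of replicate 1, and firm LC3 filled 21 of them entirely, 1 in part and 5 not at all. Each of the 27 had at least 1 base in an LC3 list. Lamin B1 replicate 1 bridged 36 gaps of replicate 2, and firm LC3 filled 17 of them entirely, 8 in part and 11 not at all. In 5 of the 36, no base was in either LC3 list. As background, 1040 of the 1305 Mb of firm lamin B1 was firm LC3. A high share of gaps filled by firm LC3 is therefore not particular to the gaps that replicate 2 bridged.

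**Figure D2:**
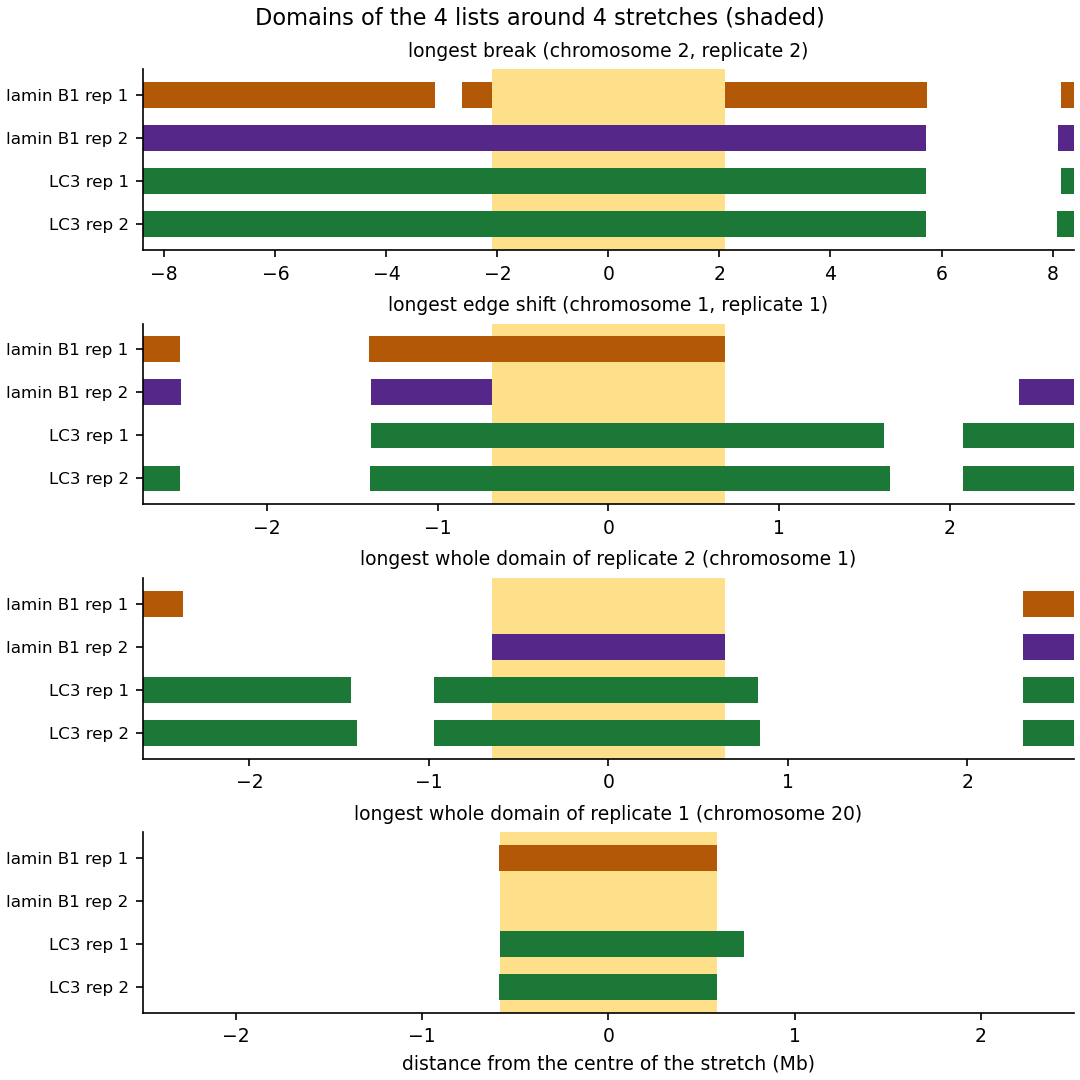
Domains of the 4 lists (bars) around 4 stretches (shaded), with distance from the centre of the stretch in Mb on the horizontal axis. At the break of 4.19 Mb the LC3 lists are continuous and only lamin B1 replicate 1 is interrupted, at the edge shift of 1.36 Mb lamin B1 replicate 1 runs on where replicate 2 stops, and the whole domains of 1.30 and 1.17 Mb are each missing from the other lamin B1 list.

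Whole domains showed a different setting for each holder. The LC3 domains around those of replicate 2 had the higher median length, and those of replicate 1 filled more of their LC3 domain at the median. For the 15 whole domains of replicate 2, the LC3 domain around them had a median length of 3.37 Mb (range 0.546 to 34.1 Mb), and the lamin B1 domain filled a median of 27.2% of it. For the 14 of replicate 1, the LC3 domain had a median length of 0.534 Mb (range 0.291 to 19.9 Mb), and 84.9% of it was filled. At least 50% of the LC3 domain was filled in 11 of 14 cases for replicate 1 and in 3 of 15 for replicate 2. Both ends of the lamin B1 domain lay within 50 kb of the ends of the LC3 domain in 6 of 14 and 2 of 15 cases, and neither end did in 3 of 14 and 10 of 15. The distance of 50 kb was chosen after the positions had been seen.

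The longest whole domain was held by replicate 2 on chromosome 1 from 172076001 to 173372000 (1.30 Mb). The LC3 lists had domains from 171750001 to 173555000 and from 171750001 to 173568000 there, so LC3 reached beyond lamin B1 on both sides, and the nearest replicate 1 domain was 1.66 Mb away. The second, also held by replicate 2, was on chromosome 6 from 55212001 to 56428000 (1.22 Mb), near the right end of LC3 domains of 11.1 Mb. The third was held by replicate 1 on chromosome 20 from 858001 to 2028000 (1.17 Mb). LC3 replicate 2, which is on the same 3 kb grid as lamin B1 replicate 1, listed a domain with these ends, LC3 replicate 1 listed 860001 to 2170000, and the nearest domain of lamin B1 replicate 2 was 4.08 Mb away. This was among 17 firm LC3 domains in which the stretches made up at least 50% of the length, and among 3 that consisted of nothing else. On chromosome 1 another domain of replicate 1, from 204576001 to 205047000, covered a firm LC3 domain from 204579001 to 205047000 in full. Across the 29 whole domains, 17 lay in firm LC3 over their entire length. The distance to the nearest domain of the other lamin B1 list ranged from 243 kb to 4.08 Mb with a median of 786 kb, and 22 were over 500 kb away. No whole domain was therefore a neighbour split off by a gap of under 100 kb.

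Firm LC3 met these whole domains unevenly between the holders. Lamin B1 replicate 1 had 52 domains that shared no base with replicate 2 in the entire genome, of which 14 met firm LC3 and 26 had no base in either LC3 list. Lamin B1 replicate 2 had 23 such domains, of which 15 met firm LC3 and 3 had no base in either LC3 list. Replicate 1 thus had more domains of its own, and replicate 2 had a nearly equal number in firm LC3. The same count over all domains, 613 in replicate 1 and 593 in replicate 2, is not given here. By length, 1040 of the 1305 Mb of firm lamin B1 was firm LC3.

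Edge shifts were mostly small steps along the rim of a domain. Of 489, 216 (44.2%) were under 12 kb and 390 (79.8%) under 100 kb. The 99 edge shifts of at least 100 kb held 81.1% of their length. A median of 0.931% of the holder's domain was affected, and in 5 cases the shift took at least 50% of that domain. Shifts occurred to similar extents at both sides: the firm lamin B1 sequence was to the right of 242 and to the left of 247. The largest was held by replicate 1 on chromosome 1 from 168992001 to 170355000 (1.36 Mb). On the left the 4 lists began at positions between 168270001 and 168280001. On the right lamin B1 replicate 2 ended at 168992000, lamin B1 replicate 1 at 170355000 and the LC3 lists at 171290000 and 171324000. The next 2 were held by replicate 2, on chromosome 6 from 141032001 to 142143000 (1.11 Mb) and on chromosome 4 from 127506001 to 128592000 (1.09 Mb). On chromosome 4 the lamin B1 replicate 2 domain ended 18 kb before the end of the LC3 replicate 1 domain, while LC3 replicate 2 continued to 151011000.

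At the outer end of an edge shift, firm LC3 usually went on without lamin B1. Only shifts with firm LC3 could enter, and their median of 15 kb was short beside the median of 1651.5 kb for firm LC3 domains. The pattern therefore follows in part from the selection. Firm LC3 went on in this way for 336 edge shifts (68.7%) with 31.7 Mb. Firm LC3 stopped first, inside the domain of the holder, for 82 (16.8%) with 3.50 Mb, and the lamin B1 end coincided with the end of firm LC3 for 71 (14.5%) with 3.41 Mb. The first pattern made up 188 of 236 edge shifts of replicate 2 (79.7%) and 148 of 253 of replicate 1 (58.5%). Coincident ends made up 15 (6.36%) and 56 (22.1%). Lamin B1 replicate 1 and LC3 replicate 2 were both laid out in bins of 3 kb, whereas LC3 replicate 1 had bins of 5 kb, and exact coincidence is easier on a shared grid. Of the 56 coincident ends of lamin B1 replicate 1, 42 were ends of LC3 replicate 2 alone. The difference between holders was not tested. Seen from the other side, 311 of the 365 stretches of firm LC3 with no lamin B1 (85.2%) adjoined a described stretch at 1 end or more, and 64 at both ends. At 336 of these borders the stretch was an edge shift, with sequence of all 4 lists on its far side, and at 39 it was a whole domain, which adjoined no sequence of all 4 lists. Where lamin B1 begins inside firm LC3, a described stretch lies there unless both lamin B1 lists begin at the same base. The share of 85.2% is therefore also set in part by the rule.

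The LC3 domains that contained the stretches were longer than those that did not. Of 422 firm LC3 domains, 300 contained at least 1 stretch and had a median length of 1.95 Mb, against 0.944 Mb for the other 122. A stretch of at least 100 kb was present in 126. Stretches of both holders occurred together in 93 domains, and the most in a single LC3 domain was 14. Longer domains have more room for a stretch, so the difference in length follows in part from the counting.

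Sequence of a single lamin B1 replicate divided differently between the replicates with and without LC3. In firm LC3, replicate 2 held 60.3% of it. Where neither LC3 list had a domain, replicate 2 held 20.7%, that is 9.07 Mb against 34.8 Mb for replicate 1. Put as a share of each list, 73.1% of the 79.1 Mb that replicate 2 alone listed was firm LC3 and 11.5% was free of LC3. For the 94.8 Mb that replicate 1 alone listed, these shares were 40.1% and 36.7%. As background, 1040 of the 1305 Mb of firm lamin B1 was firm LC3 and 126 Mb was free of LC3. The proportions of replicate 2 alone were nearer to this background than those of replicate 1 alone. The share held by replicate 2 was higher in firm LC3 than without LC3 on 20 of the 22 chromosomes that could be compared. Chromosomes 3 and X were the exceptions. This count is no replicate check, because a single set of 4 lists supplied every chromosome. It also weights all chromosomes equally, although the stretches summed to only 0.029 Mb on chromosome 17 and 0.010 Mb on chromosome 22. On chromosome 20 both shares were small, at 1.35% in firm LC3 and 0.52% without LC3. With the autosomes pooled, the shares of replicate 2 in firm LC3 and without LC3 were 61.0% and 6.83%. Over all chromosomes they were 53.2% and 31.9% with LC3 replicate 1 alone as the criterion, and 59.9% and 17.3% with LC3 replicate 2 alone. The gap of 39.7 percentage points was 21.3 without LC3 replicate 2. With a single LC3 list, the second share covers all sequence outside that list, including sequence that the other LC3 list holds. The gaps therefore differ in the sequence compared as well. Sequence listed by LC3 replicate 1 alone was divided in the proportion of 13.8 Mb for lamin B1 replicate 1 to 1.07 Mb for replicate 2, and sequence listed by LC3 replicate 2 alone in the proportion of 8.17 to 11.1 Mb.

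**Figure D3:**
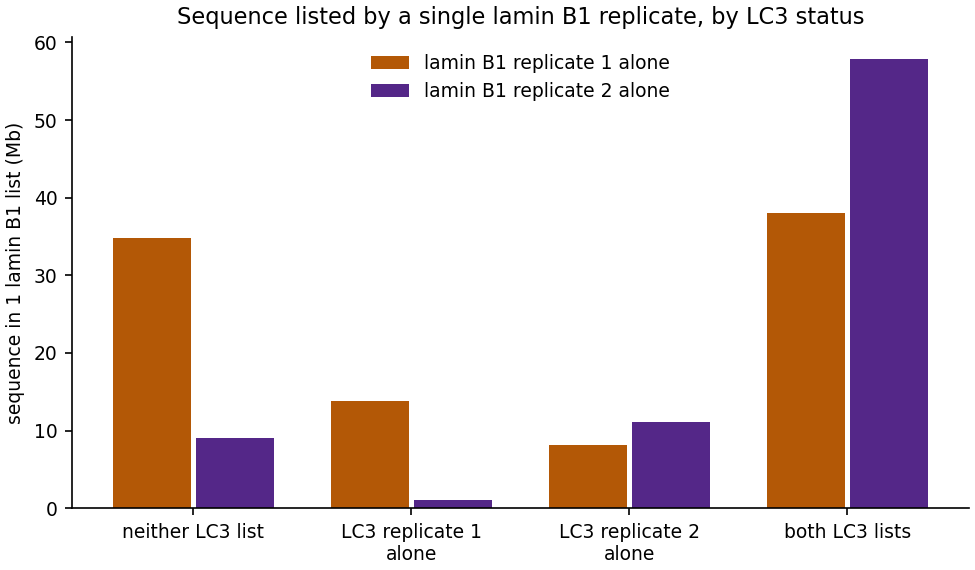
Length in Mb of sequence listed by lamin B1 replicate 1 alone or replicate 2 alone, grouped by the LC3 lists that hold it; bars are single totals with no replicate. Replicate 1 has the longer bar without LC3 (34.8 against 9.07 Mb) and replicate 2 has it in firm LC3 (57.8 against 38.0 Mb).

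The share of lamin B1 sequence that was in a single list was given by LC3 status as well. Of the sequence in at least 1 lamin B1 list, 8.44% was in exactly 1 when both LC3 lists held it. This share was 14.9% with LC3 replicate 2 alone, 34.6% with LC3 replicate 1 alone and 25.8% without LC3. The lists hold positions only, so how close the absent replicate came to a call in any stretch is unknown.

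Large chromosomes carried most of the length. Chromosome 3 had the most, 12.1 Mb in 57 stretches, followed by chromosome 1 with 9.46 Mb in 67 and chromosome 2 with 9.44 Mb in 43. As a percent of firm LC3 length, chromosome 12 was highest at 11.3%, then chromosome 7 at 10.3% and chromosome 3 at 9.24%, and chromosome 20 followed within 0.01 percentage points of chromosome 3. Breaks made up 6.53 of 8.30 Mb on chromosome 7, 5.87 of 9.44 Mb on chromosome 2, 5.96 of 12.1 Mb on chromosome 3, 3.14 of 6.36 Mb on chromosome 12 and 2.42 of 9.46 Mb on chromosome 1. Whole domains weighed most on chromosome 13, with 3.00 of 4.97 Mb. At the low end, chromosome 17 had 0.029 Mb, chromosome 22 had 0.010 Mb, and chromosome 19 had none because it has no firm LC3. Replicate 2 held more than replicate 1 on 14 chromosomes and less on 8. Among the 16 chromosomes with at least 1 Mb of stretches, replicate 2 held more on 10. Its share ran from 83.1% on chromosome 4 to 1.35% on chromosome 20 among autosomes with at least 1 Mb of stretches. Chromosome 3, with the greatest length, went with replicate 1, which held 7.003 of its 12.1 Mb.

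**Figure D4:**
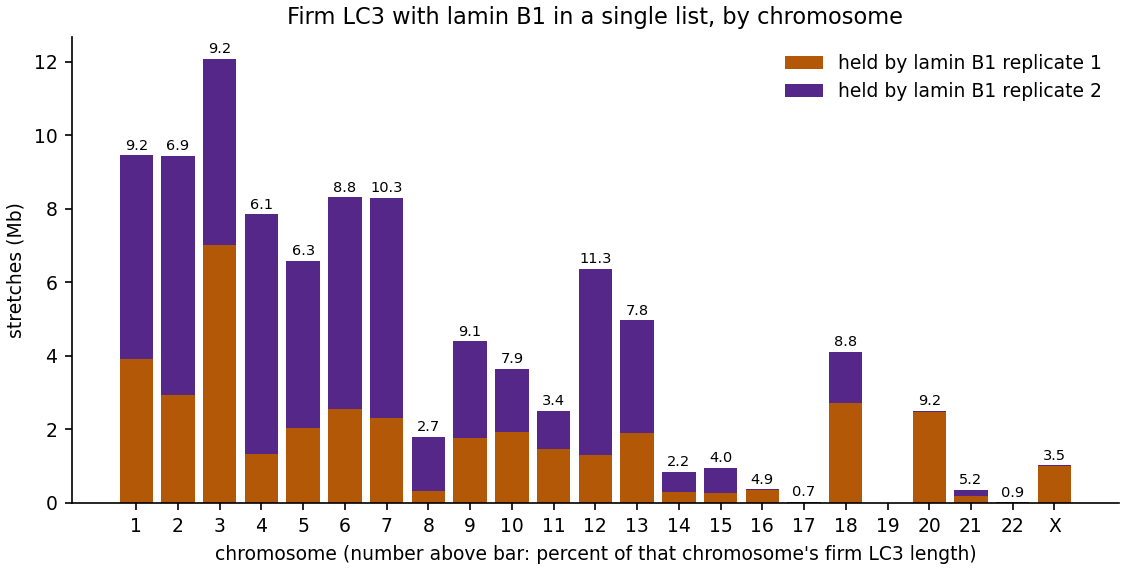
Length of the stretches on each chromosome in Mb, split by the lamin B1 replicate that held them, with the percent of that chromosome's firm LC3 length printed above each bar. Chromosome 3 has the tallest bar at 12.1 Mb, chromosome 12 the highest percent at 11.3%, and on chromosomes 20 and X nearly all length is held by replicate 1.

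Chromosome X contributed 1.02 Mb in 6 stretches, or 3.51% of its 29.1 Mb of firm LC3, against 7.37% on the autosomes. Replicate 1 held 1.01 Mb of it. A single edge shift from 14868001 to 15699000 supplied 0.831 Mb. There lamin B1 replicate 1 had a domain from 10836001 to 15699000, replicate 2 one of 0.840 Mb and the LC3 lists domains of 1.69 and 1.68 Mb. The next longest on X were 61 kb from 20271001 to 20332000 and 59 kb from 138776001 to 138835000. The last was the rim of a gap of 1.86 Mb in replicate 2 that firm LC3 hardly entered. The value of 3.51% for X was found when both LC3 lists were required, and those lists had 31.7 Mb (replicate 1) and 66.6 Mb (replicate 2) of domains there. Without LC3 replicate 1, X had 7.40 Mb of such sequence (11.1% of LC3 length, 7.60% on autosomes), of which lamin B1 replicate 2 held 82.1%. Without LC3 replicate 2 it had 2.18 Mb (6.86%, 7.91% on autosomes), of which lamin B1 replicate 2 held 12.9%. The share of the holders on X therefore turned over with the LC3 list used.

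The mirror image, firm lamin B1 with LC3 in exactly 1 list, was longer and had other shares of breaks and whole domains. It comprised 334 stretches with 138.2 Mb, and LC3 replicate 2 held 79.7% of the length. Whole domains took 42.8% of its length, compared with 19.7% in the set described here, while breaks took 15.4% compared with 40.0%. Edge shifts took similar shares, 41.8% and 40.2%. Chromosome X supplied 32.0 Mb of the mirror set and 1.02 Mb of the described set. On autosomes alone the mirror set fell to 106.2 Mb, with 40.8% in whole domains and 20.02% in breaks, against 19.9% and 40.4%. Both sets come from the same 4 lists, and the difference between them was not tested.

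**Figure D5:**
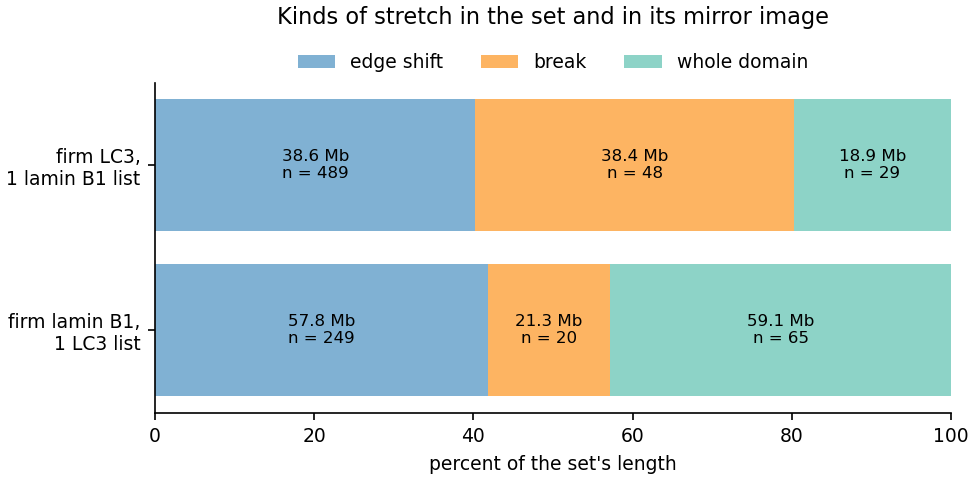
Percent of length in edge shifts, breaks and whole domains for firm LC3 with 1 lamin B1 list (upper bar) and for firm lamin B1 with 1 LC3 list (lower bar), with Mb and number of stretches in each segment. Breaks fill 40.0% of the upper bar and 15.4% of the lower, and whole domains fill 19.7% and 42.8%.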

How the data were processed

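The deposited lists, 1 for each lamin B1 and LC3 replicate, give a chromosome, a start and an end per domain and no other measurement. The authors worked on GRCh37/hg19 with Bowtie2, bedtools and bcl2fastq (2.16.0.10), per the submitters' processing notes. The name of each list points to EDD, which looks for broad domains in precipitated against input reads. Version and settings of EDD were not given in the sources used here. Read numbers are unknown, and no counting interval can be given. NumPy 2.4.6 under Python 3.11.15 was used to compare the lists kb by kb, and positions are printed 1-based. The sorting into edge shifts, breaks and whole domains was tested on simulated data, in which differences made by the same definitions were planted. The simulated LC3 lists were identical and edge shifts were planted at the left end only. The test therefore checked the code and says nothing about these lists. The stretches, the kinds and the rule for those named were chosen with earlier results of these data known. Named were the 5 longest stretches, the 3 longest of each holder, kind and chromosome X, the shortest, and the chromosomes with the 3 highest lengths and percents or none; other regions were added after their values had been seen. Alternatives covered minimum lengths, joining, autosomes, the LC3 lists required and the meaning of a whole domain. Genes, GC content and sequence were not analysed here because the reference tables use another build.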

Additional observations from a re-analysis of the deposited data

How the results depend on the processing

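Lamin B1 replicate 2 held the larger share of the length in each of the 13 alternatives run (53.2% to 62.1%), some of which left it unchanged, as given below. No alternative left out the longest stretches. Those of at least 1 Mb gave 26.2 Mb for replicate 2 against 8.42 Mb for replicate 1. From 500 kb to 1 Mb the lengths were 12.8 and 13.5 Mb, and from 100 to 500 kb 15.8 and 11.6 Mb. The number of stretches depended on the shortest length counted. It fell from 566 to 346, 220 and 168 with minimum lengths of 12, 50 and 100 kb, while the total length was 95.1, 91.9 and 88.3 Mb. With 1 LC3 list left out, the total was 110.7 to 115.2 Mb, the share held by lamin B1 replicate 2 was 53.2% to 59.9%, edge shifts took 36.4% to 42.6%, breaks 37.9% to 42.1%, and whole domains 19.5% to 21.5%. The gap in the share of lamin B1 replicate 2 between sequence inside and outside the LC3 list kept was 21.3 to 42.6 percentage points. The union of the LC3 lists gave 130.0 Mb, 53.9% of it held by replicate 2. Among stretches of at least 100 kb, edge shifts took 35.4%, breaks 43.2% and whole domains 21.4%. With domains of at least 500 kb only, the total was 100.5 Mb, with 35.6% in edge shifts and 26.7% in whole domains. Joining stretches up to 100 kb apart, keeping touching stretches apart and allowing a whole domain to share 10% with the other list altered none of these values, so those 3 choices tested nothing. Leaving out a lamin B1 list leaves the stretches undefined and was not run, and neither were GC content or gene density. No paired analysis was possible because the results come from no test. Unknown depth limits what absence from a list can show.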
